A study of Mus musculus with 2 samples.

Results

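The gene group described here comprised 9 transcription factor genes of the myeloid lineage, *Spi1*, *Cebpa*, *Cebpb*, *Cebpd*, *Runx1*, *Maf*, *Mef2a*, *Mef2c* and *Bhlhe40*. They were taken by gene symbol from a list, and all 9 were found among the 55536 annotated genes measured. The samples were 2 libraries of polyA-selected RNA from C57BL/6J mouse macrophages grown from bone marrow, labelled biological replicates 1 and 2 of 1 treatment. Both had received Lipid A, the lipid anchor of bacterial endotoxin, at 100 ng/ml for 12 h, had been washed free of it for 12 h, and had received 100 ng/ml again for 300 min. The treatment field of the labels gives lipoprotein A instead, and age and sex were not collected. The replicates share a donor identifier, and nothing in the labels says whether they came from separate animals. No untreated or singly treated culture was analysed here, so every value below is a level within this 1 group or a distance between its 2 libraries, and no response to Lipid A was tested. In these bulk samples, fewer cells of a type and less RNA per cell cannot be told apart.

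PU.1, the product of *Spi1*, is an ETS factor that opens enhancers in myeloid cells and sets the macrophage programme together with the C/EBP factors and RUNX1. C/EBP alpha acts early in myeloid commitment, while C/EBP beta and C/EBP delta are best known as factors of the inflammatory response. c-MAF drives *Il10* and complement *C1q* genes in macrophages, the MEF2 factors link growth and stress signals to transcription, and BHLHE40 is a repressor that binds E-boxes and lowers *Il10*.

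Gene expected counts totalled 50503159 in replicate 1 and 46342331 in replicate 2, of which the 9 genes held 0.108% and 0.096%. All 10 macrophage markers examined, *Csf1r*, *Adgre1* and *C1qa* among them, were at 10 TPM or more in both libraries, with summed levels of 20497 and 20768 TPM, where TPM is an abundance scaled to transcript length and to the library. The 8 neutrophil markers summed to 67.9 TPM in replicate 1 and 4.46 TPM in replicate 2, mostly through *S100a8* and *S100a9*, and *Ly6g* was at 0 counts in both. *Cd4*, at 42.9 and 40.2 TPM, and *Acp5*, at 59.7 and 41.0 TPM, made up nearly all of the T cell and osteoclast sums, and each of the lists for dendritic cells, B cells, erythroid cells, mast cells and fibroblasts summed to 5.90 TPM or less.

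The 9 genes spanned a 162-fold range of mean level. The top of that range, the TPM of *Spi1*, rests in large part on short transcript models. *Spi1* and *Maf* reached 100 TPM in both libraries, *Cebpb* and *Mef2a* lay between 10 and 100 TPM, *Mef2c* stood on either side of 10 TPM, and *Runx1*, *Cebpd*, *Cebpa* and *Bhlhe40* stayed under 10 TPM. For comparison, the median over the 10586 genes at 1 TPM or more in both libraries was 15.4 TPM. In the order of mean levels, the ranges of *Mef2c* and *Runx1* overlapped, and those of every other pair of neighbours lay apart, although with 2 libraries a range is a narrow base. *Spi1* stood above 97.3% of these expressed genes, *Maf* above 88.6%, *Cebpb* above 72.9%, *Mef2a* above 58.3%, *Mef2c* above 39.3%, *Runx1* above 36.0%, *Cebpd* above 31.1%, *Cebpa* above 27.0% and *Bhlhe40* above 14.4%. By reads instead of TPM the order began differently, because the *Maf* transcript is long and much of the *Spi1* TPM lies on short models. *Maf* took 43.7% and 43.4% of the counts of the 9 genes in replicates 1 and 2, and *Spi1* took 35.9% and 36.9%. Spi1-201, of 2034 nt, held 53.7% and 40.3% of *Spi1* TPM but 88.6% and 80.6% of its counts.

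**Figure D1:**
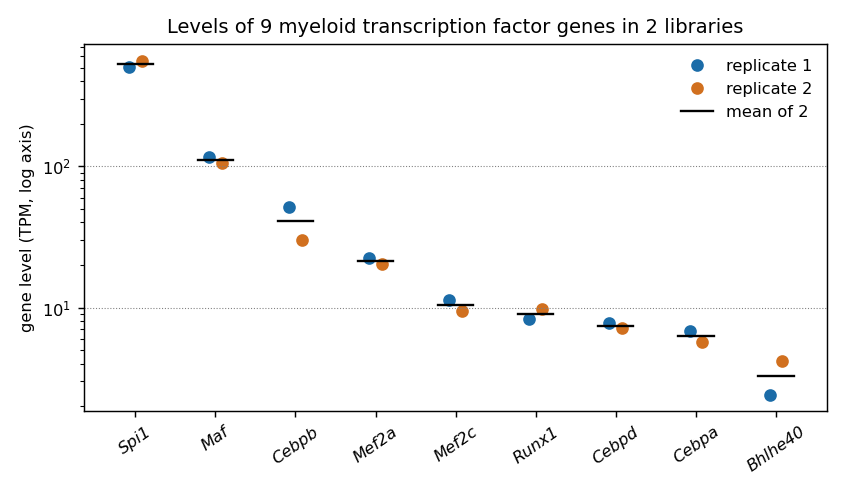
Gene level in TPM (vertical log axis) of the 9 genes in replicate 1 (blue) and replicate 2 (orange), with the mean of the 2 libraries as a bar and dotted lines at 10 and 100 TPM. *Spi1* at 503 and 559.6 TPM and *Maf* at 117 and 105 TPM stand above the upper line in both libraries, and *Cebpb* and *Bhlhe40* show the widest gaps between replicates.

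*Spi1* (ENSMUSG00000002111.8, mm10 chromosome 2, 91082390 to 91115756, plus strand) had levels of 503 TPM (replicate 1) and 559.6 TPM (replicate 2), a mean of 531 ± 39.9 TPM (SD, n = 2), from 19589 and 16437 counts. The gene level hides a mixture of starts. Spi1-201, the 5-exon transcript of 2034 nt that begins at 91096096, held 270.4 and 225 TPM. Spi1-204 and Spi1-202 begin further upstream, at 91082390 and 91082408, and are short models of 544 and 613 nt. Spi1-204 has its own annotated start codon at 91082504, against 91096949 for Spi1-201, and its 3′ end is annotated as incomplete. It held 115 TPM in replicate 1 and 229 TPM in replicate 2, while Spi1-202, annotated as a transcript without a reading frame, held 57.7 and 73.5 TPM. Spi1-203, a 402-nt fragment of the downstream start, held 11.9% and 5.62% of the TPM of the gene. The upstream pair together made up 34.3% of the TPM of the gene in replicate 1 and 54.1% in replicate 2, but 9.70% and 18.5% of its counts, since TPM divides by the short model length. Spi1-201 led in replicate 1 and Spi1-204 in replicate 2. In TPM *Spi1* was therefore lower in replicate 1 than in replicate 2, whereas in counts scaled for library size and composition by TMM it was higher, at 389 CPM against 354 CPM. An upstream share of 40.4% and 55.5% in the second deposited quantification, which was made from the reads and an index, shows the same order of the replicates.

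*Spi1* exceeded every other ETS gene listed. Of 10 relatives, 7 reached 10 TPM in both libraries and none reached 100 TPM. The highest were *Spic*, the PU.1 relative of iron-recycling macrophages, at 51.0 and 37.5 TPM, then *Elf1* at 38.1 and 42.0 TPM, *Elf4* at 38.1 and 40.2 TPM, and *Etv6*, a repressor, at 31.4 and 39.5 TPM. *Ehf*, an epithelial ETS factor, was lowest at 0.07 and 0.04 TPM. *Irf8*, the interferon regulatory factor that binds DNA jointly with PU.1, was at 72.7 and 74.9 TPM. *Spi1* exceeded *Irf8* by 2.83 ± 0.08 within the libraries, as a log2 difference after adding 1 TPM. That gap includes the TPM of the short *Spi1* models, and Spi1-201 alone was at 270.4 and 225 TPM. *Gata2*, a factor of blood progenitors and mast cells, had 5 and 3 counts, and *Gata1* had 2 and 0.

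*Runx1* (ENSMUSG00000022952.17, chromosome 16, 92601466 to 92826149, minus strand) encodes the DNA-binding subunit of core binding factor. It had 8.27 TPM (replicate 1) and 9.83 TPM (replicate 2), or 9.05 ± 1.10 TPM (SD, n = 2), from 1494 and 1579 counts. The gene has a distal and a proximal promoter that give proteins with different amino termini, and transcripts from both annotated starts were detected. Transcripts from the distal start group (92826149 to 92825778) made up 65.6% and 59.9% of *Runx1* TPM, and those from the proximal group (92697328 to 92695495) 34.4% and 40.1%. In counts the distal shares were 71.6% and 64.5%. Runx1-201, the 8-exon distal transcript with its start codon at 92825646, was at 5.15 and 5.41 TPM, and Runx1-202, the proximal transcript with its start codon at 92695753, was at 2.47 and 3.54 TPM. The distal group was the larger in both libraries and in both quantifications, where it took 60.5% and 66.1% in the second. The order of the replicates thus turned between quantifications. The 66.1% includes 27.9% on Runx1-204, a 336-nt fragment with 0 and 1 counts in the first quantification.

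The 300-base windows around these starts, from 250 bases before to 50 after the RefSeq start (RefSeq, GRCm38.p6, which is the mm10 build), are shown because the transcripts split between them. Capitals mark matches, on either strand, to 6 motifs: GAGGAA for PU.1, TGTGGT for RUNX, TTGCNNAA for C/EBP, CACGTG for an E-box, CTA and TAG with any 4 bases between them for MEF2, and TATAAA. The distal window (chr16:92826025-92826324, minus strand) is set on the start of Runx1-207 at 92826074, a little downstream of the Runx1-201 start. It held 2 RUNX matches, 29 and 37 bases into the transcribed side and read on the opposite strand, and an E-box 71 bases before the start. The proximal window (chr16:92697280-92697579, minus strand) held 1 PU.1 match, 46 bases before the start. No match overlaps another in either window. The distal window had 2 CpG dinucleotides and 45.0% GC, the proximal one 35 and 69.0%.
Runx1 distal: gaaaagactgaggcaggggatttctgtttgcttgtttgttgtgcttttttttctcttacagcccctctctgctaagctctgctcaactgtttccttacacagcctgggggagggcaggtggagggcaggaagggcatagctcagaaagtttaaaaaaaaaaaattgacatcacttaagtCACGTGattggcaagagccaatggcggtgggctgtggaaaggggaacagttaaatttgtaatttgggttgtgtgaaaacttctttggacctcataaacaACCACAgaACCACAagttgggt
Runx1 proximal: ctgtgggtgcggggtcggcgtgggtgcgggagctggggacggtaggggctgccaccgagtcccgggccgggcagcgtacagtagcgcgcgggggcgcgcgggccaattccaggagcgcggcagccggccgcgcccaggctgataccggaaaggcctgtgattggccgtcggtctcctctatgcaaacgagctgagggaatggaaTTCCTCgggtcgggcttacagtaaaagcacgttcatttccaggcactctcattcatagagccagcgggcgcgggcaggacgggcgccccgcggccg

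Of all 32851 promoter windows in the same table, 28.3% hold a PU.1 match, 16.8% a RUNX match, 10.8% a C/EBP match, 7.15% an E-box, 3.69% a MEF2 match and 13.6% TATAAA. A match is a string of letters in a window and was not tied to binding by any measurement here. Windows were present for *Cebpa*, *Cebpb*, *Runx1*, *Mef2a* and *Mef2c*, 8 in all. The *Cebpa* window held 1 TATAAA match, 30 bases before the start. No C/EBP match lay in any of these 8 windows.

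*Cbfb*, the partner subunit that stabilises RUNX proteins on DNA, stood at 52.5 and 50.8 TPM and exceeded *Runx1* by 2.39 ± 0.19 (log2, within libraries). *Runx2*, the bone factor, was at 0.43 and 1.21 TPM and *Runx3* at 0.24 and 0.22 TPM, while *Runx1t1* had no count in either library, which allows up to 0.0594 and 0.0647 CPM. *Runx1* was thus the highest of the 3 RUNX genes in both libraries.

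The C/EBP genes were led by *Cebpb* (ENSMUSG00000056501.3, chromosome 2, 167688915 to 167690418). It had 51.3 TPM (replicate 1) and 30.2 TPM (replicate 2), a mean of 40.7 ± 14.9 TPM (SD, n = 2), from 2305 and 1245 counts. *Cebpd* (ENSMUSG00000071637.5, chromosome 16, 15887286 to 15891031) was at 7.78 and 7.11 TPM from 984 and 821 counts. *Cebpa* (ENSMUSG00000034957.10, chromosome 7, 35119293 to 35121928) was at 6.80 and 5.70 TPM from 533 and 401 counts. In each library the order was *Cebpb*, *Cebpd*, *Cebpa*, and *Cebpb* exceeded *Cebpa* by 2.48 ± 0.37 and *Cebpd* by 2.26 ± 0.45, whereas *Cebpd* exceeded *Cebpa* by 0.22 ± 0.07 (log2 of TPM plus 1). All 3 genes had more scaled counts in replicate 1 than in replicate 2. The neutrophil marker sum was also higher in replicate 1, at 67.9 against 4.46 TPM, while *Cebpe*, the C/EBP gene of granulocytes, had 3 and 11 counts. The part of these markers in the C/EBP values was not tested.

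*Cebpb* has 1 annotated transcript of 1 exon, from which translation can begin at several codons to give activating and inhibitory proteins, and these protein forms cannot be seen in RNA levels. Its window (chr2:167688665-167688964, plus strand) is shown because this gene led the 3 C/EBP genes described and differed most of them between the replicates. It had 80.7% GC and 50 CpG dinucleotides against a median of 7 over all windows, and 1 TATAAA match, in capitals, 22 bases after the RefSeq start.
Cebpb: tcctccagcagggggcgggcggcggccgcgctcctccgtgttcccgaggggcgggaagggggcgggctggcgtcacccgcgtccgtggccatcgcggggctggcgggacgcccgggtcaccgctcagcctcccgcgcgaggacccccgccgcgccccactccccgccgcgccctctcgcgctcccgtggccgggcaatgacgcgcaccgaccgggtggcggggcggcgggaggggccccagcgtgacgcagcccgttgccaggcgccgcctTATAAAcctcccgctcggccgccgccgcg

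*Cebpa* has 2 annotated transcripts with the same start codon at 35119419, Cebpa-201 and Cebpa-202. Cebpa-201 held 56.7% and 47.8% of the TPM of the gene, so by TPM neither led in both libraries. Cebpa-201 led in both by counts, at 62.0% and 53.3%, and in the second quantification, at 72.3% and 62.6%. Cebpd-201 carried 100% of *Cebpd* in both. Exons of *Tmem189*, on the opposite strand, cover 20.7% of the *Cebpb* exon, and *Tmem189* was at 68.8 and 64.1 TPM. Exons of *Spidr* cover 562 bases of *Cebpd* exon, at 7.36 and 6.92 TPM. The sources used here do not say whether counting used strand, and reads of such neighbours cannot be told apart without it. Expected counts of *Cebpd* and *Spidr* were fractional, at 983.94 and 819.06 in replicate 1 and 821.14 and 700.86 in replicate 2. In each library they add to a whole number, so some reads were divided between these opposite-strand genes.

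Other genes listed with the C/EBP family, not all of them C/EBP factors proper, ranged more widely than the 3 described. *Ddit3*, the stress-induced CHOP that pairs with C/EBP factors and blocks them at many sites, was highest at 191.6 and 269.7 TPM. The log2 ratio of *Cebpb* to *Ddit3* was -1.88 in replicate 1 and -3.12 in replicate 2. *Cebpz* was at 9.87 and 8.65 TPM and *Cebpg*, a partner without an activation domain, at 7.61 and 8.56 TPM. *Trib1*, a pseudokinase that brings C/EBP alpha to the ubiquitin ligase COP1, had 7.79 TPM (replicate 1) and 2.45 TPM (replicate 2), from 1139 and 330 counts. Its log2 ratio to *Cebpa* was 0.17 in replicate 1 and -0.96 in replicate 2, so the direction of this pair was not the same. *Trib2* had no count in either library.

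*Maf* (ENSMUSG00000055435.6, chromosome 8, 115682942 to 115707794, minus strand) had 117 TPM (replicate 1) and 105 TPM (replicate 2), a mean of 111 ± 8.69 TPM (SD, n = 2). Its counts of 23882 and 19371 were the highest of the 9 genes, so its level is also among the most precisely counted. Maf-202, a single exon of 6360 nt, held 84.7% and 83.4% of the TPM of the gene, and the 3-exon Maf-201 the other 15.3% and 16.6%. Both share the start codon at 115706863. The antisense gene *Gm15655* overlaps 5.3% of *Maf* exon sequence and was at 71.1 and 28.7 TPM, from 471 and 178 counts. Its expected counts were fractional (470.88 and 177.71), so some of its reads may have been shared with *Maf*.

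The small MAF genes, which lack an activation domain, were at 28.0 and 40.3 TPM for *Mafk*, 21.3 and 16.4 TPM for *Mafg* and 9.12 and 6.70 TPM for *Maff*, and the retinal *Nrl* had no count in either library. Among 8 genes described as MAF targets, *C1qb* was at 3226 and 2541 TPM, *C1qc* at 2387 and 1811 TPM, *C1qa* at 1017 and 696 TPM, *Mertk*, a receptor for dying cells, at 82.6 and 74.4 TPM and *Il10* at 42.3 and 33.9 TPM. *Cd163* was lowest with 15 and 3 counts. Of the 7 compared between libraries, 6 were higher in replicate 1, with a median log2 ratio of 0.33, and over all expressed genes 5249 of 10520 were higher there, with a median of 0.00. *C1qa*, *C1qb* and *Mertk* were also among the macrophage markers examined. A relation to *Maf* was not tested.

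*Mef2a* (ENSMUSG00000030557.17, chromosome 7, 67231163 to 67372858, minus strand) was at 22.4 and 20.4 TPM, or 21.4 ± 1.44 TPM (SD, n = 2), from 3944 and 3269 counts. *Mef2c* (ENSMUSG00000005583.16, chromosome 13, 83504034 to 83667080, plus strand) was at 11.3 and 9.41 TPM, or 10.4 ± 1.34 TPM (SD, n = 2), from 1646 and 1086 counts. *Mef2a* exceeded *Mef2c* by 0.99 ± 0.08 (log2). *Mef2d*, at 17.2 and 16.1 TPM, lay between them, and *Mef2b* had 1 and 0 counts. Of the class IIa histone deacetylases that hold MEF2 factors silent, chosen here after their values were seen, *Hdac5* was at 8.56 and 8.31 TPM, *Hdac9* at 1.96 and 2.26 TPM, *Hdac4* at 1.96 and 1.83 TPM and *Hdac7* at 1.98 and 1.19 TPM.

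The MEF2 genes differed in how many transcripts carried them. Mef2a-208, of 12 exons, held 82.1% and 84.5% of *Mef2a* TPM, and 98.7% and 98.9% of the gene began at 1 start group (67372858 to 67372827). Mef2a-203, of 11 exons, held another 11.1% and 11.7%. In the second quantification Mef2a-208 still led, at 71.6% and 68.8%, but Mef2a-204 came next at 15.8% and 18.0%, against 3.70% and 0.59% in the first. *Mef2c* has 31 annotated transcripts, of which 19 were at 0 TPM in both libraries. Its transcripts fell into several start groups. The first start group (83504034 to 83504240) made up 12.8% and 3.08% of *Mef2c* TPM, the second (83523473 to 83524920) 31.6% and 37.7%, and the third (83572348 to 83575677) 47.2% and 51.8%. A further 8.41% and 7.43% lay on Mef2c-230 alone, which begins at 83625603 and whose 5′ end is annotated as incomplete. In counts the third group took 67.2% and 72.3%, the second 12.3% and 20.8%, the first 19.0% and 5.32% and Mef2c-230 1.56% and 1.61%. Mef2c-212, an 11-exon transcript of 6088 nt from the third group with its start codon at 83575677, led in both libraries and both quantifications, at 5.20 and 3.90 TPM. In the second quantification the third group took 43.5% and 35.3%, and the second group was the larger in replicate 2, at 36.5% and 47.5% in replicates 1 and 2. The first group took 16.01% and 11.76% there, so its gap between replicates was narrower than in the first quantification. Mef2c-201, the 11-exon transcript from the first group, had 1.44 TPM (replicate 1) and 0.29 TPM (replicate 2), from 312 and 57.8 counts. Shorter models took much of the rest of the TPM, with 19.0% and 12.5% for Mef2c-217, 6.11% and 11.9% for Mef2c-227 and 1.06% and 10.4% for Mef2c-219. These shares rest on few reads. Mef2c-217 had 32.9 and 16.7 counts, Mef2c-227 80.8 and 120 counts and Mef2c-219 4.5 and 32.2 counts.

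The windows at the *Mef2a* start (chr7:67372809-67373108, minus strand) and at the third *Mef2c* start (chr13:83573357-83573656, plus strand) are shown because they lie at the starts that carried the most transcript. The *Mef2a* window held a match to the MEF2 motif itself, CTAAAAATAG, beginning 2 bases before the start, and 2 PU.1 matches at 114 and 103 bases before it. It had 27 CpG dinucleotides. The third *Mef2c* window held none of the 6 motifs and 4 CpG dinucleotides, which says only that these letters are not within this window. RefSeq windows within or near the first and second *Mef2c* groups lie at Mef2c-218 and Mef2c-207, both at 0 TPM, and not at the starts of Mef2c-201, Mef2c-217 or Mef2c-227, so their matches are not described.
Mef2a: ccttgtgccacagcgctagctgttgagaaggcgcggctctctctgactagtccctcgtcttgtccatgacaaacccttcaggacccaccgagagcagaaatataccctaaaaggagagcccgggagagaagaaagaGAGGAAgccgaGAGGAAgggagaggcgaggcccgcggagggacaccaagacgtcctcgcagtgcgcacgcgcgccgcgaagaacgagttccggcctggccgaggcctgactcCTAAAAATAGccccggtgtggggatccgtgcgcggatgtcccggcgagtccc
Mef2c: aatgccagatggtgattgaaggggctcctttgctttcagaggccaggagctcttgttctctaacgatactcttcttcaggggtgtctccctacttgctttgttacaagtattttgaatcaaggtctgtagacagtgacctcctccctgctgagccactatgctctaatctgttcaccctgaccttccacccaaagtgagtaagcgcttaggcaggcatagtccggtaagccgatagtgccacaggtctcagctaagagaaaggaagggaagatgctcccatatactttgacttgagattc

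**Figure D2:**
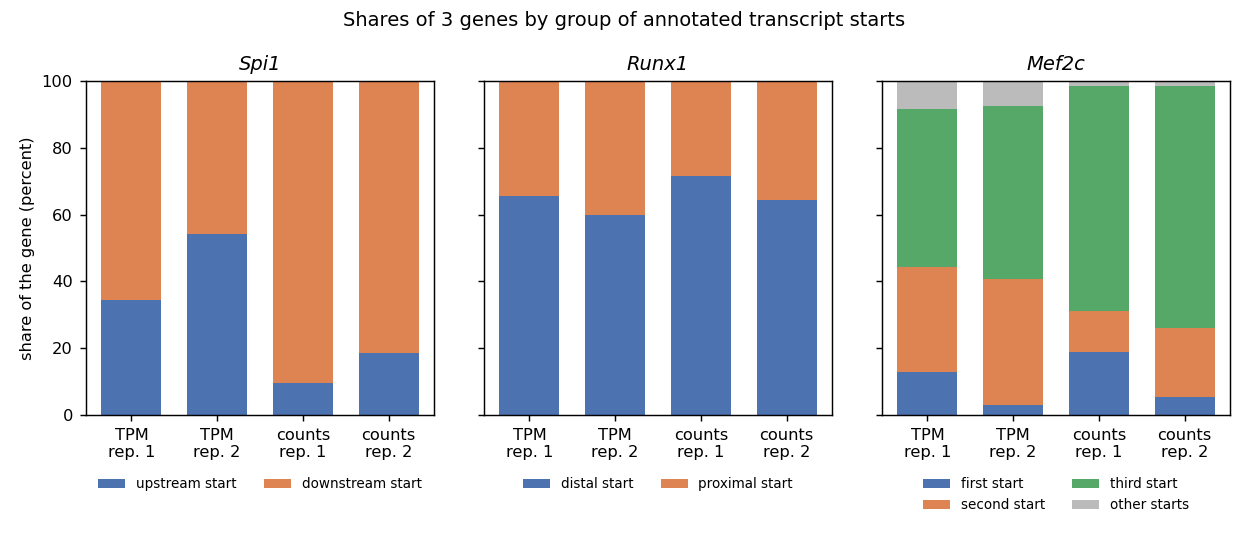
Share of each gene in percent by group of annotated transcript starts, for *Spi1*, *Runx1* and *Mef2c*, from TPM and from expected counts in replicates 1 and 2. The upstream *Spi1* start takes 34.3% and 54.1% by TPM but 9.70% and 18.5% by counts, the distal *Runx1* start is the larger in each bar, and the third *Mef2c* start is the largest in each bar.

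*Bhlhe40* (ENSMUSG00000030103.11, chromosome 6, 108660629 to 108666925, plus strand) was the lowest of the 9 genes, with 2.41 TPM (replicate 1) and 4.15 TPM (replicate 2), or 3.28 ± 1.23 TPM (SD, n = 2), from 248 and 392 counts. Bhlhe40-201 held 97.9% and 99.5% of it. The related repressor *Bhlhe41* was at 3.15 and 5.90 TPM and the log2 ratio of *Bhlhe40* to it was -0.28 and -0.42. Both genes were lower in replicate 1 than in replicate 2. *Il10*, a gene that BHLHE40 represses, exceeded *Bhlhe40* by 3.67 in replicate 1 and 2.76 in replicate 2 (log2). The lower *Bhlhe40* level in replicate 1 itself widens that gap, and a relation between these genes was not tested. Of the other factors listed that bind related E-boxes, *Usf1* was at 65.6 and 98.3 TPM, *Tfe3* at 80.4 and 71.2 TPM, *Usf2* at 66.2 and 72.8 TPM and *Mitf* at 30.6 and 29.1 TPM.

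**Figure D3:**
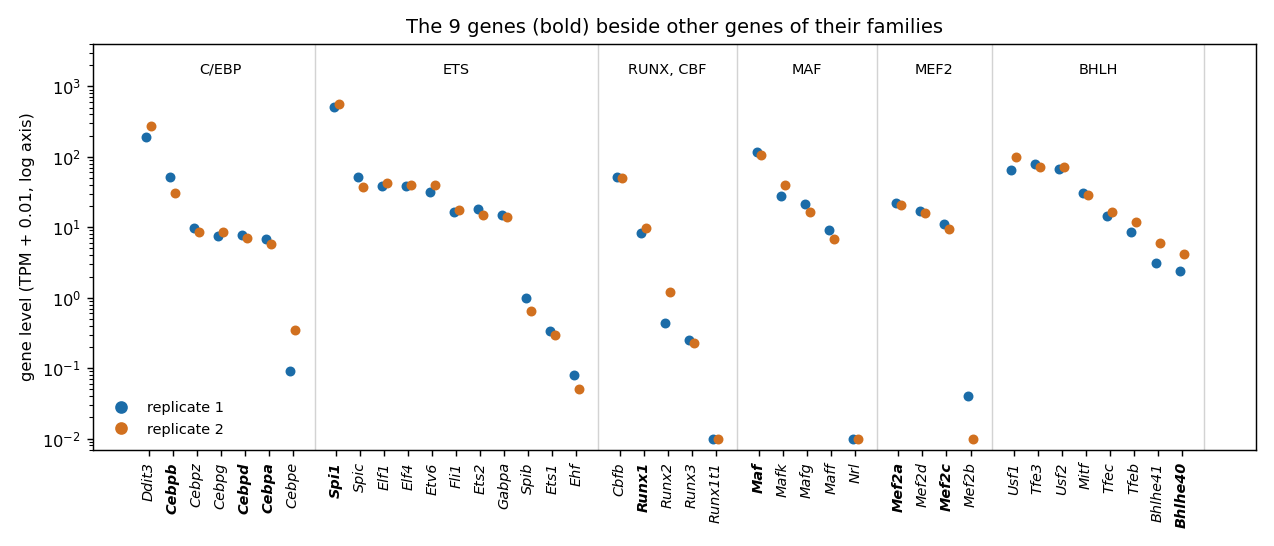
Gene level in TPM plus 0.01 (vertical log axis) of the 9 genes, in bold, and of other genes listed with their families, for replicate 1 (blue) and replicate 2 (orange). *Spi1* and *Maf* stand highest in their panels, *Cebpb* stands below *Ddit3*, and *Bhlhe40*, at 2.41 and 4.15 TPM, is lowest in its panel.

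No gene of the 9 lay 2-fold or more apart between the libraries, against 4.21% of the 12543 genes that passed the filter on low counts (528 genes). All 9 passed that filter. They were also at 1 TPM or more in both libraries, where 218 of 10520 genes were 2-fold apart. At shares this low, none among 9 genes says little. The log2 ratios of TMM-scaled counts, replicate 1 over replicate 2, are given with 95% counting intervals, from the exact binomial interval of replicate 1's share of the gene's reads. They cover counting error only and have no replicate check. *Cebpb* stood at 0.77 (0.67 to 0.87) and *Bhlhe40* at -0.78 (-1.01 to -0.54), and their distances were exceeded by 7.68% and 7.59% of all genes. *Mef2c* stood at 0.48 (0.37 to 0.60), *Cebpa* at 0.29 (0.10 to 0.48), *Runx1* at -0.20 (-0.30 to -0.09) and *Maf* at 0.19 (0.16 to 0.21). *Mef2a* at 0.15, *Cebpd* at 0.14 and *Spi1* at 0.14 were the closest. The median distance of the 9, regardless of direction, was 0.20, close to 0.21 over all genes. Of the 9, 7 were higher in replicate 1 and 2 in replicate 2, beside 5249 of 10520 expressed genes higher in replicate 1. On deposited TPM *Spi1* turned to the other side, at -0.15.

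**Figure D4:**
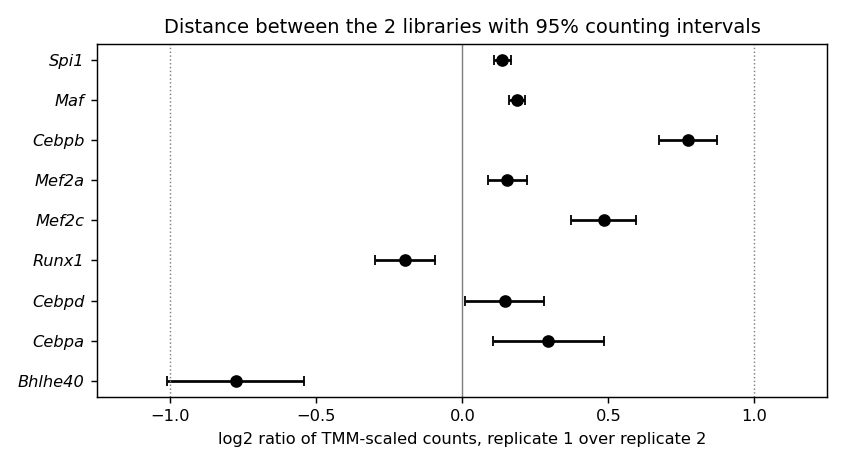
Log2 ratio of TMM-scaled counts, replicate 1 over replicate 2 (horizontal axis), for the 9 genes in order of level, with 95% counting intervals as bars and dotted lines at 2-fold. *Cebpb* at 0.77 and *Bhlhe40* at -0.78 stand farthest from 0, on opposite sides, and no point lies past a dotted line.

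The 9 mean levels were also compared between the 2 deposited quantifications. As means of both libraries, the second gave between 0.907 and 1.22 times the first level. None was 2-fold apart, where 13.4% of the 12268 genes reaching 1 TPM by one or the other were. At that share, none among 9 genes says little. *Runx1* was the gene at 1.22 times, at 8.79 and 13.3 TPM in the second quantification against 8.27 and 9.83 TPM in the first. In the second, the 336-nt fragment Runx1-204 took 2.45% of the gene in replicate 1 and 27.9% in replicate 2. In that quantification *Runx1* was below *Mef2c* in replicate 1, at 8.79 against 10.6 TPM, and above it in replicate 2, at 13.3 against 8.21 TPM, so these neighbours had no fixed order there either.

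Other myeloid and haematopoietic factors filled a wide range around these 9. Of 16, 4 were at 10 TPM or more in both libraries and 6 under 1 TPM in both. *Id2*, an inhibitor of E proteins, was at 340.9 and 277 TPM, *Irf5*, a driver of inflammatory cytokine genes, at 178 and 186 TPM, and *Zeb2*, which preserves macrophage identity, at 134 and 114 TPM. Of the 14 that passed the filter on low counts, 3 were 2-fold or more apart between libraries, beside 4.21% of 12543 genes. These were chosen here after their values were seen: *Batf3* at 7.09 and 2.88 TPM, *Tal1* at 2.30 and 6.57 TPM and *Klf4* at 1.71 and 3.74 TPM. Of 12 cofactors and repressors, *Ncor1* was highest at 60.4 and 57.9 TPM, then *Jun*, a partner of several of these factors, at 52.7 and 38.3 TPM. The acetyltransferase gene *Ep300* was at 25.9 and 32.5 TPM and *Tle3* at 8.68 and 10.9 TPM. Of the 11 cofactors and repressors that passed that filter, 1 was 2-fold apart, *Trib1*, beside the same share over all genes.

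Genes described as targets of these factors included some of the most abundant transcripts. All 12 targets of PU.1 and RUNX1 were at 10 TPM or more in both libraries and 8 at 100 TPM or more. Their median was 248 TPM. Of 10586 genes at 1 TPM or more in both libraries, 6232 reached 10 TPM and 1234 reached 100 TPM. None of the 12 was 2-fold or more apart between libraries, beside 218 of 10520 expressed genes. *Cd14*, chosen after its value was seen, came close, at 348 and 691 TPM and a log2 ratio of -0.99. The 12 ran from *Lyz2* at 10292 and 11210 TPM, *Cd68* at 2195 and 2076 TPM, *Tyrobp* at 2519 and 1626 TPM and *Fcgr1* at 638 and 617 TPM to *Tlr4* at 31.2 and 24.5 TPM. *Lyz2*, *Cd68*, *Fcgr1*, *Cd14*, *Csf1r* and *Itgam* were also among the macrophage markers examined. Of 10 C/EBP targets, 9 reached 10 TPM and their median was 87.1 TPM. *Saa3* was at 24302 and 19628 TPM, *Msr1* at 418 and 692 TPM (from 31204 and 27176 counts, a log2 ratio of 0.08 in the other direction), *Il1b* at 274 and 269 TPM and *Csf3r* at 94.1 and 85.2 TPM, while *Arg1* had 0 and 3 counts. *Nos2* and *Il12b*, chosen after their values were seen, were 2-fold or more apart, at log2 ratios of -1.26 and -1.32. Target lists were drawn from general knowledge, but with earlier results of these data known. The levels of listed targets therefore only describe the lists and cannot show that targets of these factors are abundant. No measurement here ties any of these genes to a factor.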

How the data were processed

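PolyA-selected RNA was measured in 2 libraries of 1 group, so no test between groups was possible. Per the labels and the READMEs deposited with the samples, the build is mm10 and the annotation GENCODE M21. For each library the authors deposited expected counts and TPM per gene and transcript from a transcriptome alignment, per the file headers, and a second table of estimated counts and TPM made from the reads. The sources used here do not give the quantifiers, their versions or the strand handling. Per library, 26345 entries naming no gene stayed out, among them phiX174 with 0.0631% and 0.0676% of counts.

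Expected counts were rounded to whole numbers, filtered with filterByExpr and scaled with TMM in edgeR 4.0.16 (R 4.3.3). Log2 ratios used a prior count of 0.5 and pairs a pseudocount of 1 TPM. The ratio step was tested on simulated data. Other steps used Python 3.11.15, pandas 2.3.3, SciPy 1.17.1, NumPy 2.4.6 and matplotlib 3.10.9, and DESeq2 1.42.0 gave alternative size factors. The files give no molecular identifiers, so intervals and limits for 0 (3 counts) cover counting error only. Replicate counts differed by more than sampling noise (chi-square per degree of freedom 69.9 over 14288 genes), so both were kept.

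Transcript starts within 5 kb formed a group. Members, lists and pairs were chosen with earlier results of these data known. Of each list the text names the 4 highest genes, the lowest and every gene of a pair, plus the class IIa deacetylases and some markers, chosen after their values were seen. Of these, 1 listed gene is not reported here.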

Additional observations from a re-analysis of the deposited data

How the results depend on the processing

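None of the 9 genes was 2-fold apart under any of the 5 alternatives for the ratio. Over all genes 528 were, against 5481 when no low-count filter was used and 180 on deposited TPM plus 1. The ratio of *Spi1* was 0.14 in counts and -0.15 on deposited TPM plus 1. That of *Mef2c* was 0.24 on deposited TPM plus 1. Genes 2-fold apart between quantifications numbered 1643, or 296 at a minimum of 10 TPM. Members at 10 TPM or more numbered 4, or 4 to 5 with a replicate left out, and members at 100 TPM 2 throughout. Without replicate 2 the *Trib1* to *Cebpa* pair turned to 0.17, and without replicate 1 it was -0.96, against -0.39 as the mean of both libraries. Rescaling TPM without mitochondrial and ribosomal RNA genes raised the 9 levels 1.07-fold and put 5 members at 10 TPM. The *Spi1*, *Runx1* and *Mef2c* start shares, and their alternatives, were chosen after seeing the data. With starts grouped at 1 kb the third *Mef2c* share was 43.8% as a mean of both libraries, against 49.5%. No paired analysis was possible because the series has 1 group. Counting error is smallest for *Maf* and *Spi1* and largest for *Bhlhe40*.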
